A study of Mus musculus with 27 samples.

Results

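White fat of the epididymal pad from C57BL/6N mice fed a high-fat diet for 8 weeks, with 60% of its energy as fat, was compared with the same tissue from C57BL/6N mice kept on a normal diet for those 8 weeks. Both groups were 13 weeks old, and the labels name no other treatment or genetic change for either. The comparison takes the 3 libraries whose titles give 8 weeks of high-fat diet and the 3 whose titles give 8 weeks of normal diet, which are 6 of the 27 libraries and 2 of the 9 groups of the study. It was read across genes: 43460 gene names were counted, and 17821 had enough counts to be tested. The rest of the study follows mice through weight loss, maintained loss and regain. From it, only 3 libraries of mice given the high-fat diet for the last 4 of 16 weeks and 3 of mice on normal diet for 16 weeks are used below, all of mice 21 weeks old, because they form a high-fat comparison that shares no library with the first.

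The epididymal pad is a visceral fat depot beside the testis. Its adipocytes store triglyceride, answer to insulin and to adrenergic signals, and secrete leptin, adiponectin and adipsin. When the pad fills with lipid, macrophages gather around dying adipocytes, take up their lipid and digest it in lysosomes, and such lipid-associated macrophages are known by genes such as Trem2, Gpnmb and Lgals3. The pad also holds resident macrophages, lymphocytes, fibroblast-like progenitors of adipocytes, blood and lymph vessels, and a covering of mesothelium. RNA came from whole tissue, so more cells of a type and more RNA per cell cannot be told apart in any value below.

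Levels are CPM, read counts scaled to library size after TMM normalization, and are listed for libraries 1, 2 and 3 in that order. Changes are log2 fold changes of high-fat over normal diet ± SE, with 3 libraries a group, from edgeR's quasi-likelihood test fitted to all 27 libraries. A gene is said to have risen or fallen where its p, adjusted by Benjamini-Hochberg over the 17821 genes, was under 0.05. Replicates are numbered in the labels, and nothing there says that they are separate animals. The p-values therefore measure only how far these libraries spread, which may be technical. An exact permutation test of 3 against 3 libraries cannot give a p below 0.1 and was not used.

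The 6 libraries held 28299940 to 30820468 counts, and the median SD of log2 CPM over genes was 0.21 within the high-fat group and 0.20 within the normal-diet group. Some libraries stood apart from their group. Lars2, a mitochondrial tRNA synthetase gene examined after its values were seen, was at 2827 CPM in high-fat library 1 and 2258 CPM in normal-diet library 2 and 97.5 to 122 CPM in the remaining 4. Medians within each of these sets are given below for the general and resident macrophage lists only, and those of other lists, which were not always alike in both sets, are not reported here. Efferent duct and ciliated epithelium genes, from tissue that neighbours the pad, summed to 39.3, 271 and 62.9 CPM in the normal-diet libraries and to 2.38, 2.24 and 5.62 CPM in the high-fat libraries. These sums leave out Aqp1, a water channel that vessels also make and that was at 463, 919 and 243 CPM and 917, 369 and 318 CPM in the same order, a choice made after its values were seen. The sperm gene Prm2 was at 18.1 CPM in high-fat library 2. Liver genes such as Alb were low but higher in every normal-diet library, at 47.1, 80.9 and 74.2 CPM against 4.27, 9.15 and 28.3 CPM. The pad's own markers were high in all 6 libraries: Adipoq, which encodes adiponectin, was at 2388, 1692 and 2177 CPM after high-fat diet and 3089, 2987 and 3693 CPM after normal diet.

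Diet separated the 6 libraries, with general macrophage, lysosome and cell cycle genes among those that rose most often. The first principal component of log2 CPM held 62.2% of the variance and separated the diets, and the second held 16.4% and set high-fat library 1 and normal-diet library 2 apart from the others. Of all genes tested 12.0% rose and 9.52% fell, 21.5% together. Counts of called genes in each list below are to be read beside these shares. Rises of at least 2-fold were found for 6.91% and falls of that size for 5.84%. The median over all 17821 genes was -0.02, so a list with a median near 0 moved no more than genes in general. Called falls were more common than called rises among long non-coding RNAs (92 lower and 33 higher of 595) and antisense transcripts (65 and 22 of 461), while protein-coding genes gave 1427 lower and 2022 higher of 15411. Antisense genes and the genes they overlap may share reads, since no source used here says whether the counting used strand. A call held with each of the 6 libraries left out in turn for 1782 of the 3833 genes, 1200 of those that rose and 582 of those that fell. The number called was between 2129 and 3289 with 1 library left out, lowest without high-fat library 2 and next lowest without high-fat library 3 (2330). Genes named below kept their call in each of those 6 fits unless the text says otherwise.

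**Figure D1:**
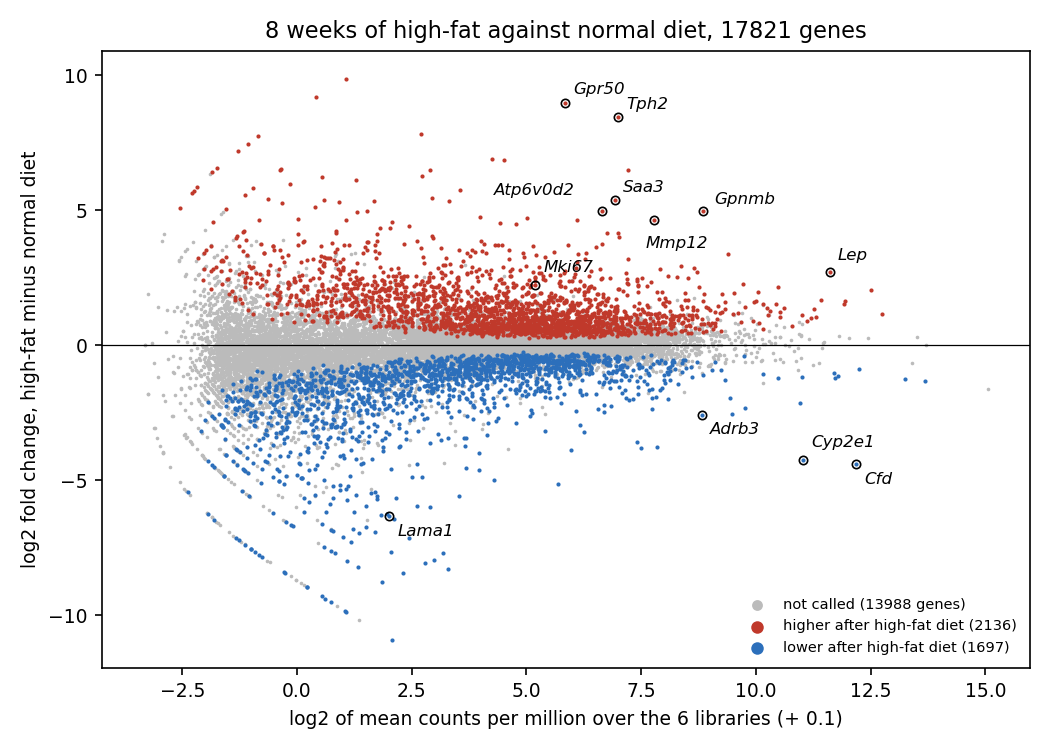
Log2 fold change of high-fat over normal diet (vertical axis) against log2 mean CPM of the 6 libraries (horizontal axis), 1 point a gene, with called genes in colour. Of 17821 genes, 2136 were called higher and 1697 lower, and the 2 directions are spread over all expression levels.

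General macrophage markers rose almost without exception. Of 23 tested, 20 rose and none fell, with a median log2 fold change of 1.88. The count was 16 to 19 with 1 library left out, and the median was 1.83 among the libraries low in Lars2 and 1.98 between the 2 high in it. Cd68, a glycoprotein of macrophage lysosomes, was at 351, 487 and 434 CPM after high-fat diet and 63.999, 50.8 and 62.9 CPM after normal diet (log2 fold change 2.84 ± 0.49, adjusted p = 0.000479). Every high-fat library was far above every normal-diet library. Spi1, which encodes the myeloid transcription factor PU.1, was at 81.1, 99.1 and 80.6 CPM after high-fat diet and 20.1, 19.97 and 17.5 CPM after normal diet (log2 fold change 2.18 ± 0.33, adjusted p = 0.000213). Itgax, which encodes CD11c and marks recruited macrophages and dendritic cells, rose by 3.4 ± 0.63, and Emr1, which encodes the macrophage antigen F4/80, by 2.35 ± 0.40. The signalling adaptors Tyrobp (2.32 ± 0.44) and Fcer1g (1.91 ± 0.37), which carry signals of many myeloid receptors, rose too. Over the list the mean log2 CPM was 7.09, 7.3 and 7.13 in the high-fat libraries and 5.4, 5.26 and 5.47 in the normal-diet libraries, and the groups did not overlap. In the same libraries adipocyte identity genes summed to 60227, 53523 and 58673 CPM after high-fat diet and 76629.9, 68596 and 91857 CPM after normal diet. A few abundant genes weigh heavily in these sums, and Cfd alone averaged 426 CPM after high-fat diet and 8908 CPM after normal diet. The list's median was -0.20, and 16 of its 21 genes were not called. The part of adipocyte genes in the macrophage result was not tested.

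Genes of lipid-associated macrophages had the largest median of the immune lists described here. 17 of 22 rose, with a median of 2.28, and 15 to 17 did with 1 library left out. Gpnmb, a transmembrane glycoprotein of lysosomes at chr6:49036546-49070929 (GRCm38), was at 876, 934 and 887 CPM after high-fat diet and 24.2, 30.6 and 30.5 CPM after normal diet (log2 fold change 4.98 ± 0.82, adjusted p = 0.00037). The 3 high-fat libraries were close to each other, and the change far exceeded the spread within either group. Trem2, a lipid-sensing receptor at chr17:48346401-48354147, was at 136, 283 and 191 CPM after high-fat diet and 8.98, 10.4 and 14.6 CPM after normal diet (log2 fold change 4.17 ± 0.72, adjusted p = 0.000486). Mmp12, the macrophage elastase, was at 391, 448 and 428 CPM after high-fat diet and 12.5, 21.6 and 17.4 CPM after normal diet (log2 fold change 4.62 ± 0.91, adjusted p = 0.00135). Lgals3 (galectin-3, 3.39 ± 0.46) and Fabp5 (a fatty acid carrier, 2.54 ± 0.60) rose as well. Spp1, which encodes osteopontin, rose by 3.7 ± 1.1, but its call ended without normal-diet library 1 (3.38, adjusted p = 0.0831), normal-diet library 3 (3.47, adjusted p = 0.0777) or high-fat library 2 (3.52, adjusted p = 0.0553). Apoe, which carries cholesterol out of macrophages and is also made by other cells of the pad, was the 1 member that fell (-1.01), and its call ended when any of the 6 libraries was left out (-1.11 to -0.90, adjusted p = 0.0528 to 0.124).

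Genes of cell fusion and of osteoclasts, the bone macrophages that form multinucleate cells, moved in part. Of 17 tested, 6 rose and 1 fell, and these counts were the same with each library left out. Atp6v0d2, a proton pump subunit needed for fusion, was at 182, 207 and 192 CPM after high-fat diet and 4.596, 6.79 and 7.25 CPM after normal diet (log2 fold change 4.96 ± 0.80, adjusted p = 0.00033). The fusion receptors Dcstamp (2.84 ± 0.64) and Ocstamp (3.46 ± 0.66) rose, as did Tnfrsf11a (2.16 ± 0.38), the receptor RANK, and Ctsk (2.15 ± 0.42), a collagen-cutting protease. Siglec15, a lectin of osteoclasts, was at 1.42, 1.73 and 1.59 CPM after high-fat diet and 0, 0.0307 and 0.0336 CPM after normal diet. Against these, Mmp9, a gelatinase made by osteoclasts and neutrophils, fell by 2.65 ± 0.49, from 18.9, 20.6 and 12.99 CPM to 4.69, 1.16 and 2.51 CPM. Acp5, the osteoclast acid phosphatase, was at 338, 271 and 293 CPM after high-fat diet and 364, 367 and 385 CPM after normal diet and did not pass the test (adjusted p = 0.438).

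Markers of resident macrophages did not follow. Of 24 tested, 2 rose and 6 fell, with a median of -0.58. Rises made up 8.33% and falls 25%, against 12.0% and 9.52% of all genes tested. Ccl24, an eosinophil-attracting chemokine, fell by 1.89 ± 0.44, and the lectin receptor gene Cd209f fell by 1.7 ± 0.40. In both, high-fat library 2 was the lowest, with Ccl24 at 7.11, 1.84 and 5.59 CPM and Cd209f at 19.1, 5.24 and 20.01 CPM, against 17.4, 13.5 and 23.03 and 51.9, 36.3 and 55.4 CPM after normal diet. Without that library 3 members fell, against 5 to 7 with any other left out. The list median was -0.88 among libraries low in Lars2 and 0.14 between the 2 high in it, so its direction was not the same in both sets. Mrc1 (the mannose receptor) was at 232, 237 and 238 CPM after high-fat diet and 171, 124 and 188 CPM after normal diet and Cd163 (the haemoglobin scavenger receptor) at 95.3, 27.4 and 62.1 CPM after high-fat diet and 118, 87.05 and 115 CPM after normal diet, and neither passed. Chil3, a chitinase-like protein of activated macrophages, rose by 4.35 ± 0.93.

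**Figure D2:**
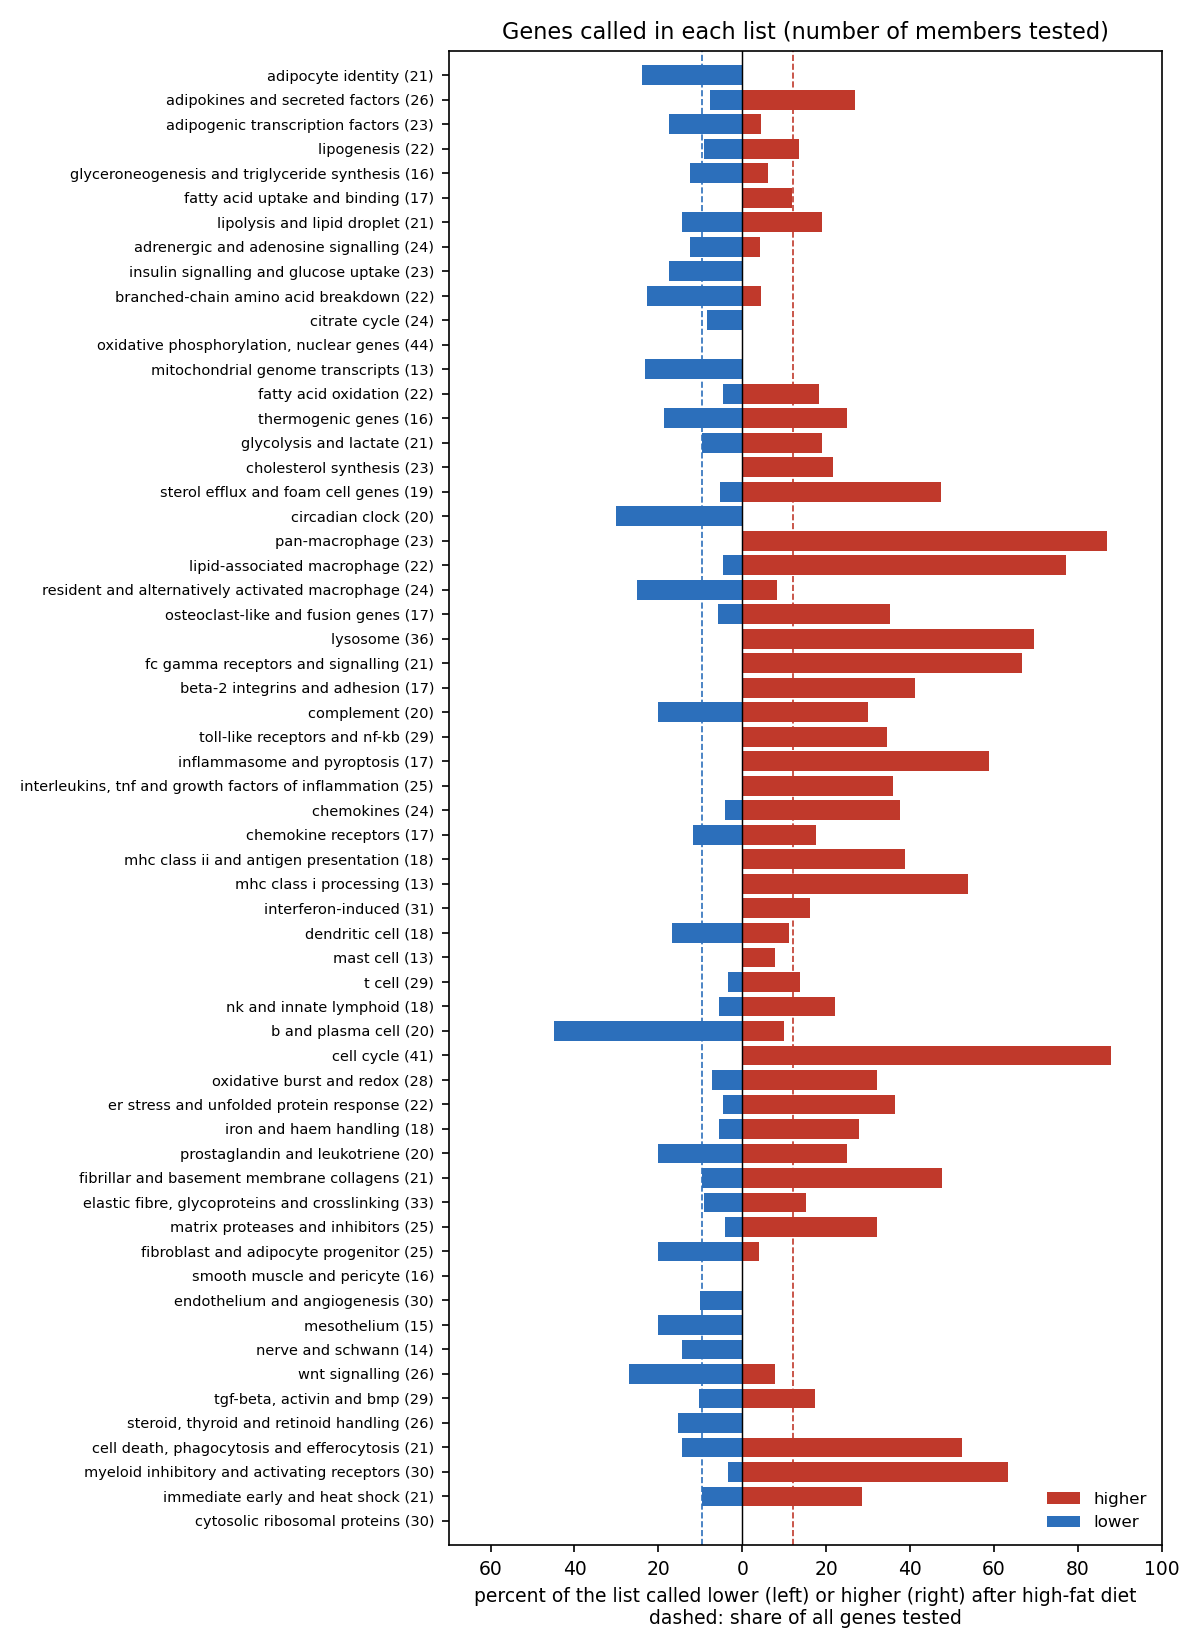
Percent of each list's tested members called higher (right, red) or lower (left, blue) after high-fat diet, with the number tested in brackets and dashed lines at the shares of all genes tested (12.0% and 9.52%). Cell cycle and pan-macrophage lists reach furthest to the right.

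Lysosomal genes rose as a group. Of 36 tested, 25 rose and none fell, with a median of 0.89, and 22 or 23 rose with any library left out. Gusb, which encodes beta-glucuronidase, was at 282, 281 and 281 CPM after high-fat diet and 61.9, 67.6 and 55.2 CPM after normal diet (log2 fold change 2.19 ± 0.25, adjusted p = 3.68e-05), and the high-fat libraries were nearly equal. Lipa, the lysosomal acid lipase that frees fatty acids and cholesterol from engulfed lipid, was at 540.02, 537 and 509.7 CPM after high-fat diet and 90.5, 106 and 77.8 CPM after normal diet (log2 fold change 2.53 ± 0.37, adjusted p = 0.000162). Gla (alpha-galactosidase, 2.32 ± 0.32), Hexa (a hexosaminidase subunit, 1.51 ± 0.20) and Ctss (cathepsin S, 2.72 ± 0.49) rose. So did abundant members: Ctsd, cathepsin D, was at 3886, 4359 and 4176 CPM after high-fat diet and 1253, 1358 and 1301 CPM after normal diet, and Psap, the precursor of the saposins that present glycolipids to hydrolases, at 6217, 6364 and 5226 CPM after high-fat diet and 1885, 2063 and 1715 CPM after normal diet. The list of sterol efflux and foam cell genes, which includes Lipa, gave 9 rises and 1 fall of 19, the fall being that of Apoe. It included Nceh1, a cholesterol ester hydrolase (3.07 ± 0.45), Soat1, which re-esterifies cholesterol (2.51 ± 0.43), and the scavenger receptor genes Msr1 (2.16 ± 0.50) and Olr1 (2.91 ± 0.77).

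Many lysosomal genes carry the letters GTCACGTG, the element bound by the factor TFEB, close to their start. RefSeq's promoter table for GRCm38.p6 held 27 of the 36 tested members and 20 of the 25 that rose. In the 250 bases before the start, read on both strands, 5 of those 20 (25.0%) held GTCACGTG or its reverse, CACGTGAC, against 1.90% of all 27025 promoters of that length. The shorter CACGTG, which lies inside it, was in 7 of the 20 (35.0%) against 6.05% of all. Among all 27 members, whether or not they rose, 6 (22.2%) held the longer element and 8 (29.6%) the shorter. A match is a description of the letters and not of binding. The 110 bases before the start of 3 genes that rose are printed 5′ to 3′ on the gene's strand, with the match in capitals: Glb1 (beta-galactosidase, 1.06 ± 0.19, chosen after its values were seen), chr9:114400968-114401077 on the plus strand; Ctsd, chr7:142387828-142387937 on the minus strand; and Sgsh (a sulfamidase, 0.95 ± 0.13), chr11:119355511-119355620 on the minus strand.
Glb1: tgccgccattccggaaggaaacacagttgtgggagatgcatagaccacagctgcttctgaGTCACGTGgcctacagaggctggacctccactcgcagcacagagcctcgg
Ctsd: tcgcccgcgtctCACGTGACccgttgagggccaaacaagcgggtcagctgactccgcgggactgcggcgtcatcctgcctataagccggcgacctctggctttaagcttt
Sgsh: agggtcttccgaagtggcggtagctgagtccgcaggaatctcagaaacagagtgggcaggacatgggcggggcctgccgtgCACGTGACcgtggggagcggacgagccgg
In Glb1 the match reads forward on the gene's strand, and in Ctsd and Sgsh it is the reverse form.

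Cell cycle genes rose almost as a whole: 36 of 41 did, none fell, and 34 to 36 rose with any library left out. The median was 1.89. Mki67, the proliferation antigen, was at 48.98, 70.02 and 60.4 CPM after high-fat diet and 12.2, 13.9 and 12.1 CPM after normal diet (log2 fold change 2.23 ± 0.39, adjusted p = 0.00051). Spc25, a kinetochore subunit with one of the smallest adjusted p-values of all genes, was at 11.8, 19.6 and 19.7 CPM after high-fat diet and 1.91, 1.72 and 1.78 CPM after normal diet (log2 fold change 3.24 ± 0.34, adjusted p = 1.6e-05). Stmn1, which encodes the microtubule regulator stathmin, was at 44.7, 79.99 and 57.1 CPM after high-fat diet and 10.6, 14.1 and 10.4 CPM after normal diet (log2 fold change 2.37 ± 0.25, adjusted p = 1.6e-05). In each of these 3 genes every high-fat library stood above every normal-diet library, and levels stayed low beside those of macrophage genes. The mitotic cyclins Ccnb1 (2.55 ± 0.41) and Ccna2 (2.19 ± 0.39), the DNA-untangling enzyme Top2a (2.16 ± 0.39), and the replication helicase subunits Mcm2 (1.56 ± 0.28) and Mcm5 (1.94 ± 0.35) rose, which covers both DNA synthesis and mitosis. Which cells of the pad held these transcripts was not measured.

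Promoters of mitotic genes are known for CCAAT boxes, which bind NF-Y, and for the cell cycle homology region TTTGAA. Promoters were given for 33 of the 41 tested members and 31 of the 36 that rose. Within 250 bases before the start, 24 of those 31 (77.4%) held CCAAT or its reverse ATTGG, against 34.5% of all promoters, and 10 (32.3%) held TTTGAA or its reverse TTCAAA, against 16.3% of all. Among all 33 members, whether or not they rose, the shares were 75.8% for CCAAT and 30.3% for TTTGAA. Neither motif lies inside the other. The 110 bases before the start are printed for 4 genes that rose, 5′ to 3′ on the gene's strand with the matches in capitals: Ccnb1, chr13:100786487-100786596; Ccnb2 (another mitotic cyclin, 2.36 ± 0.44, chosen after its values were seen), chr9:70421555-70421664; Cdk1 (the mitotic kinase, 1.9 ± 0.38), chr10:69352913-69353022; and Top2a, chr11:99024190-99024299, all on the minus strand. CCAAT is marked in all 4 and TTTGAA in Cdk1 and Top2a.
Ccnb1: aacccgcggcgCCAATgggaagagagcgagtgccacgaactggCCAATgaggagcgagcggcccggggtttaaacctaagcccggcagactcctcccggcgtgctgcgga
Ccnb2: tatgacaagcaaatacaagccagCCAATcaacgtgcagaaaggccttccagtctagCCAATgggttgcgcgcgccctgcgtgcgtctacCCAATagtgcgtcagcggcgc
Cdk1: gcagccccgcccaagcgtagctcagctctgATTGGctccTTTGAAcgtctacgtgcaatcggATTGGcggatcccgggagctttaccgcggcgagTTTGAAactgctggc
Top2a: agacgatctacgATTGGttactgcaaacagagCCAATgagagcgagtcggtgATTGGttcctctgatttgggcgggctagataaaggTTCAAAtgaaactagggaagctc
Each of the 4 holds 2 or 3 CCAAT boxes in this stretch.

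Receptors for antibody, sugars and damaged cells rose on the myeloid side. Of 21 Fc receptor and signalling genes 14 rose and none fell, and 11 to 13 rose with 1 library left out. Fcgr4 (3.41 ± 0.66) and Fcgr1 (2.41 ± 0.44) encode receptors for IgG, and Clec7a (2.45 ± 0.40) encodes the glucan receptor dectin-1. Of 30 other myeloid receptors, 19 rose and 1 fell, the ADP receptor gene P2ry13 (-1.3 ± 0.39), whose call ended without normal-diet library 1 or 2 or high-fat library 1 or 3 (-1.26 to -1.13, adjusted p = 0.0628 to 0.1). Clec12a, an inhibitory lectin, rose by 2.68 ± 0.42, Cd300a by 2.38 ± 0.51 and Sirpa, which binds the signal CD47, by 1.96 ± 0.30. Among beta-2 integrins and adhesion genes 7 of 17 rose: Itgb2, the shared beta chain, was at 288, 283 and 284 CPM after high-fat diet and 55.5, 49.2 and 59.05 CPM after normal diet (log2 fold change 2.39 ± 0.48, adjusted p = 0.00167), and Itgad, the alpha chain CD11d, at 27.4, 63.5 and 44.7 CPM after high-fat diet and 0.308, 0.43003 and 0.403 CPM after normal diet (log2 fold change 6.88 ± 1.19, adjusted p = 0.000501). Itgal, the alpha chain of lymphocyte LFA-1, was at 9.81, 16.4 and 9.12 CPM after high-fat diet and 9.78, 8.42 and 7.65 CPM after normal diet and did not pass (adjusted p = 0.476).

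Toll-like receptor and inflammasome genes rose in part, and their best known cytokine, interleukin-1 beta, did not pass. Tlr13 (3.35 ± 0.61), which reads bacterial ribosomal RNA, Tlr1 (2.64 ± 0.44) and Tlr8 (2.14 ± 0.49) were among 10 rises of 29, and Tlr4, the endotoxin receptor, was at 43.4, 31.7 and 37.2 CPM after high-fat diet and 24.8, 30.7 and 32.5 CPM after normal diet (adjusted p = 0.364). Of 17 inflammasome and pyroptosis genes 10 rose: Casp1, the protease that matures interleukin-1, was at 24.8, 45.2 and 38.96 CPM after high-fat diet and 9.96, 10.8 and 10.98 CPM after normal diet (log2 fold change 1.78 ± 0.29, adjusted p = 0.000331), and the adaptor Pycard rose by 1.95 ± 0.36. That count was 5 without high-fat library 2, 6 without normal-diet library 2 and 7 to 9 without any of the others. Il1b was at 0.6398, 0.8502 and 0.672 CPM after high-fat diet and 0.555, 0.43003 and 0.504 CPM after normal diet (log2 fold change 0.53 ± 0.56, adjusted p = 0.523). Il1rn, which encodes the interleukin-1 receptor antagonist, was at 52.1, 76.3 and 57.98 CPM after high-fat diet and 2.47, 2.12 and 2.58 CPM after normal diet (log2 fold change 4.7 ± 0.85, adjusted p = 0.000677), and Il1r2, the decoy receptor, rose by 3.13 ± 0.65. Tnf, which encodes tumour necrosis factor, was at 1.67, 3.09 and 1.87 CPM after high-fat diet and 0.308, 0.522 and 0.336 CPM after normal diet (log2 fold change 2.5 ± 0.61, adjusted p = 0.00601). Il6 had 3, 3 and 4 reads after high-fat diet and 2, 1 and 2 after normal diet and was too low to be tested.

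Chemokines that draw monocytes rose. Ccl2 was at 18.4, 43.7 and 35.95 CPM after high-fat diet and 5.83, 3.901 and 4.33 CPM after normal diet (log2 fold change 2.8 ± 0.51, adjusted p = 0.000716), and its neighbour Ccl7 rose by 2.42 ± 0.52. The chemokine genes Ccl3 (2.55 ± 0.60) and Ccl4 (3.3 ± 0.77) rose, and Ccr2, the receptor of Ccl2, rose by 1.14 ± 0.28. In all 9 of 24 chemokines rose and 1, Ccl24, fell, and 6 to 8 rose with 1 library left out. S100a8, a subunit of calprotectin carried by neutrophils, rose by 3.71 ± 0.86, while its partner S100a9 was at 0.853, 0.3401 and 0.4596 CPM after high-fat diet and 0.555, 0.553 and 0.638 CPM after normal diet and did not pass (adjusted p = 0.961). Complement genes moved both ways, 6 higher and 4 lower of 20. These are 30% and 20% of the list, against 12.0% and 9.52% of all genes tested. C3ar1 (2.47 ± 0.46) and C5ar1 (1.7 ± 0.40), the receptors of the anaphylatoxins, rose, and C7, a part of the membrane attack complex, was at 36.5, 15.6 and 25.7 CPM after high-fat diet and 346, 311 and 285 CPM after normal diet (log2 fold change -3.6 ± 0.80, adjusted p = 0.00348).

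Antigen presentation rose on both arms, and most interferon-induced genes did not pass. For class II, 7 of 18 rose, among them H2-DMb1, a peptide-loading chaperone, at 109, 174 and 135 CPM after high-fat diet and 28.1, 32.7 and 31.02 CPM after normal diet (log2 fold change 2.18 ± 0.31, adjusted p = 0.000156), and 4 rose without normal-diet library 3. For class I, 7 of 13 rose, and the heavy chain H2-K1 was at 1889.9, 2742 and 2169 CPM after high-fat diet and 876, 939 and 827 CPM after normal diet (log2 fold change 1.36 ± 0.27, adjusted p = 0.00159). Reads of H2-K1 and other class I genes may be shared, since their sequences are alike. Of 31 interferon-induced genes 5 rose (16.1%, against 12.0% of all genes tested), with a median of 0.25. Ubd, a ubiquitin-like modifier, was at 193, 339 and 349 CPM after high-fat diet and 2.78, 3.96 and 2.99 CPM after normal diet (log2 fold change 6.5 ± 1.01, adjusted p = 0.000269), and the transcription factors Irf5 (1.68 ± 0.31) and Irf8 (1.83 ± 0.29), which myeloid cells also express without interferon, rose. Oas1a, an antiviral nucleotide synthetase, rose by 1.81 ± 0.37. In contrast Ifit1 was at 10.3, 10.9 and 7.81 CPM after high-fat diet and 10.1, 8.82 and 9.4999 CPM after normal diet (adjusted p = 0.965), Isg15 at 6.97, 11.2 and 6.05 CPM after high-fat diet and 6.94, 8.26 and 5.17 CPM after normal diet (adjusted p = 0.673), and Irf7 at 25.8, 27.5 and 20.2 CPM after high-fat diet and 24.9, 24.5 and 22.4 CPM after normal diet (adjusted p = 0.955). The groups overlapped in these 3.

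The interferon list can be read beside its promoters. The interferon-stimulated response element was searched as GAAA, any 2 bases and GAAA, and as the reverse of this, in the 250 bases before the start. It was in 13 of 25 members with a promoter (52.0%) against 3.04% of all promoters, and in 1 of the 5 members that rose, Oas1a. The 110 bases before the start are printed for Oas1a (chr5:120907526-120907635, minus strand), and for Ifit1 (chr19:34640779-34640888, plus strand) and Isg15 (chr4:156200819-156200928, minus strand), which did not pass, with matches in capitals. Overlapping matches were counted.
Oas1a: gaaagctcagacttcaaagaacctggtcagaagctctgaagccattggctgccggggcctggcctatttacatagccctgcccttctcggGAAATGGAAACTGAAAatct
Ifit1: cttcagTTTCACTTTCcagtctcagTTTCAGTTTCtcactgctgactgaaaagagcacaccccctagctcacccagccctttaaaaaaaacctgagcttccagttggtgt
Isg15: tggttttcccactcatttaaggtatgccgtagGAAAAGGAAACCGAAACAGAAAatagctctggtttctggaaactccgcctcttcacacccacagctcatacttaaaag
All 3 promoters hold at least 2 matches, so the 1 gene that rose and the 2 that did not pass share this element.

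Lymphocyte genes gave calls in both directions, and many of the counts depended on single libraries. Of all genes tested 12.0% rose and 9.52% fell. Among T cell genes the shares were 13.8% and 3.45%, so their rises were near the general share and their falls below it. The shares were 22.2% and 5.56% for NK and innate lymphoid genes and 10% and 45% for B and plasma cell genes. Of 29 T cell genes 4 rose and 1 fell, with 1 rise without high-fat library 2 and 2 without normal-diet library 1 or 2. Cd3e, a chain of the T cell receptor complex, was at 1.03, 4.22 and 0.813 CPM after high-fat diet and 0.987, 0.983 and 0.906 CPM after normal diet (adjusted p = 0.245). Cd8a, the coreceptor of cytotoxic T cells, was at 1.28, 8.03 and 0.955 CPM after high-fat diet and 0.247, 0.276 and 0.604 CPM after normal diet (log2 fold change 3.18 ± 0.92, adjusted p = 0.0178). High-fat library 2 was far above the other libraries for it, and the call ended without that library (1.57, adjusted p = 0.238), without normal-diet library 1 (2.95, adjusted p = 0.072) and without normal-diet library 2 (3.0, adjusted p = 0.0666). Themis, a T cell signalling protein, rose by 3.16 ± 0.81. Of 18 genes of NK and innate lymphoid cells 4 rose and 1 fell, and 1 rose without normal-diet library 2 or 3 or high-fat library 2. The list summed to 235, 433 and 293 CPM after high-fat diet and 94.3, 96.2 and 101 CPM after normal diet, of which Tyrobp, shared with the myeloid lists, made up 176, 312 and 241 CPM after high-fat diet and 45.5, 43.3 and 57.1 CPM after normal diet. For B and plasma cells 9 of 20 genes fell and 2 rose, with a median of -2.32, but with 1 library left out the count of falls was 1 (normal-diet library 3, high-fat library 2 or high-fat library 3), 2 (normal-diet library 1), 3 (high-fat library 1) or 10 (normal-diet library 2). Blk, a B cell kinase, fell by 2.73 ± 0.67. The rises were those of Ighm, the heavy chain of IgM, at 631, 724 and 852 CPM after high-fat diet and 195, 127 and 269 CPM after normal diet, and Sdc1, a syndecan of plasma cells and epithelium, at 94.4, 82.8 and 80.4 CPM after high-fat diet and 30.1, 50.1 and 24.5 CPM after normal diet. The call of Ighm (1.9 ± 0.58) ended without normal-diet library 1 or 2 or high-fat library 2 or 3 (1.66 to 1.92, adjusted p = 0.0544 to 0.0938), and that of Sdc1 (1.3 ± 0.38) without normal-diet library 1 or 3 or high-fat library 1 (1.12 to 1.23, adjusted p = 0.051 to 0.0841). Summed over the list, levels were higher in every high-fat library, at 933, 987 and 1108 CPM against 508, 428 and 649 CPM, and Ighm held most of each high-fat sum. Of mast cell genes 9 of 13 were lower in every high-fat library, against 23.1% of all genes tested and with none called lower and 1 called higher. Ccl21a, a chemokine of lymph node stroma, was at 5.12, 0 and 4.24 CPM after high-fat diet and 46.1, 66.3 and 21.9 CPM after normal diet, and its part in the lymphocyte values was not tested.

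**Figure D3:**
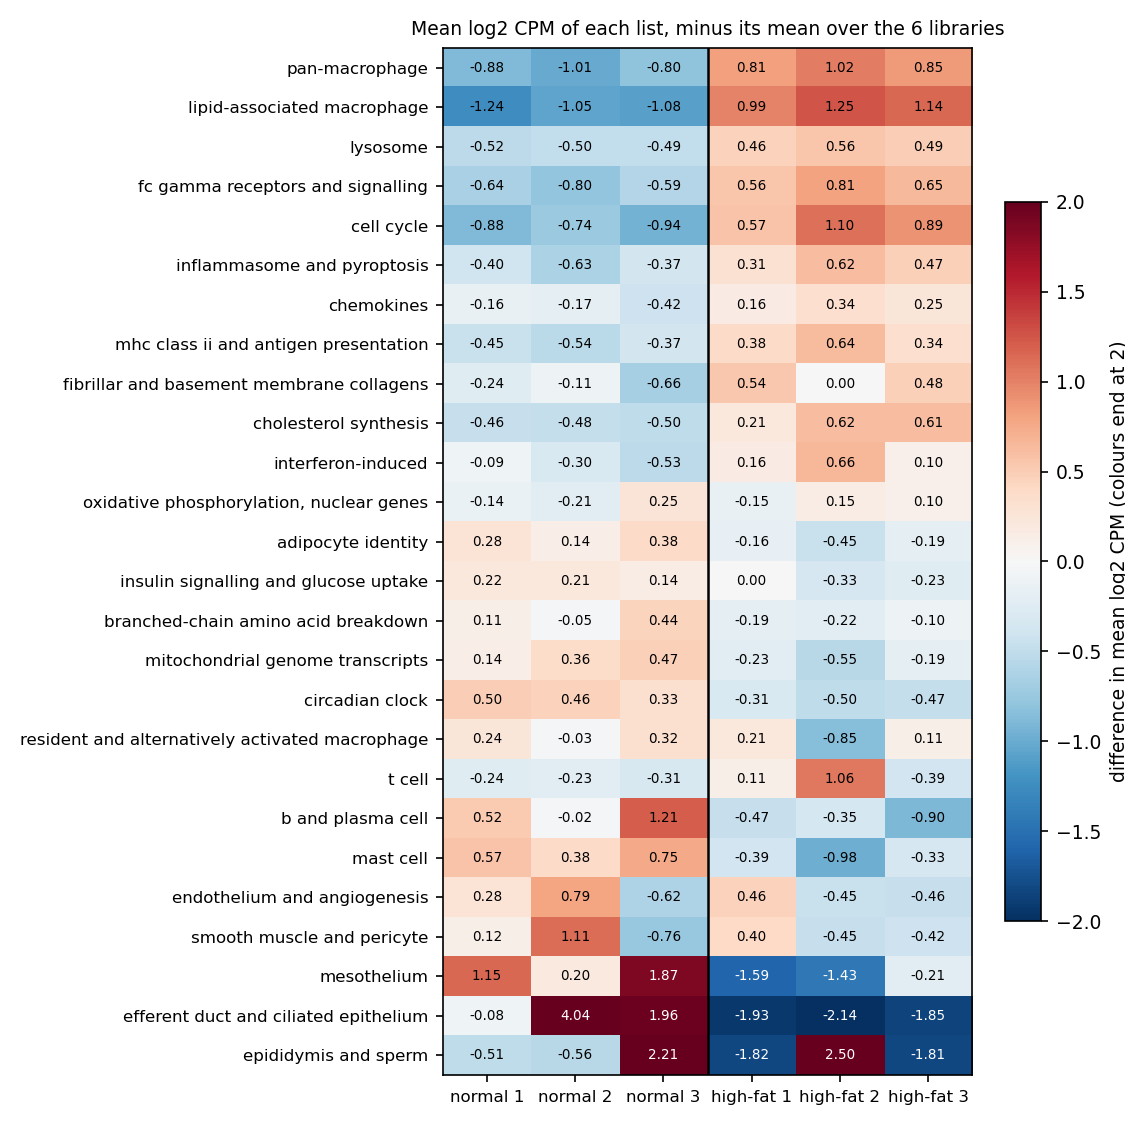
Mean log2 CPM of each list in each of the 6 libraries, minus the list's mean over the 6, as colour (red above, blue below, colours end at 2). Pan-macrophage, lipid-associated macrophage, lysosome and cell cycle lists split by diet in every library, the resident macrophage list overlaps, and efferent duct, mesothelium and B cell lists differ between libraries of 1 group.

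Adipocyte genes divided into a few that moved far and a larger number that did not pass. Lep, which encodes leptin, at chr6:29060220-29073877 (GRCm38), was at 4205, 5657 and 6338 CPM after high-fat diet and 952, 715 and 817 CPM after normal diet (log2 fold change 2.71 ± 0.68, adjusted p = 0.00744). Cfd, which encodes adipsin, the complement factor that adipocytes secrete, at chr10:79890853-79892655, was at 599, 310.3 and 369 CPM after high-fat diet and 9057, 6307 and 11360.4 CPM after normal diet (log2 fold change -4.39 ± 0.74, adjusted p = 0.000411). Cfd was far lower in every high-fat library than in any normal-diet library. Of 21 adipocyte identity genes none rose and 5 fell, and without 1 library 2 (normal-diet library 3 or high-fat library 2), 3 (normal-diet library 1 or 2, or high-fat library 3) or 4 fell. With all libraries 23.8% fell, against 9.52% of all genes tested, and the median was -0.20. Acvr1c, the activin receptor ALK7 of adipocytes, was at 93.3, 68.6 and 98.7 CPM after high-fat diet and 302, 249 and 462 CPM after normal diet (log2 fold change -1.96 ± 0.32, adjusted p = 0.000336). Fabp4, the adipocyte fatty acid carrier, was at 12796, 13859 and 13787 CPM after high-fat diet and 12594, 11834 and 15875 CPM after normal diet (adjusted p = 0.994), and Adipoq and the lipid droplet coat gene Plin1 had log2 fold changes of -0.64 ± 0.44 (adjusted p = 0.302) and -0.57 ± 0.29 (adjusted p = 0.168). Over the list the mean log2 CPM was 9.62, 9.33 and 9.59 after high-fat diet and 10.06, 9.92 and 10.16 after normal diet. Pparg, the master regulator of fat cells, was at 161, 139 and 147 CPM after high-fat diet and 186, 172 and 182 CPM after normal diet and did not pass (adjusted p = 0.466), while its coactivator gene Ppargc1a fell by 2.09 ± 0.31 and the adipocyte factor Ebf2 fell by 1.43 ± 0.25.

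Secreted factors rose more often than they fell, 7 against 2 of 26. Rises made up 26.9% and falls 7.69% of the list, against 12.0% and 9.52% of all genes tested. Saa3, an acute-phase protein, was at 149, 223 and 339 CPM after high-fat diet and 3.95, 1.04 and 12.1 CPM after normal diet (log2 fold change 5.38 ± 1.05, adjusted p = 0.00129). Hp, which encodes the haemoglobin-binding haptoglobin, was at 7666, 9576 and 10955 CPM after high-fat diet and 2485, 1452 and 2874 CPM after normal diet (log2 fold change 2.05 ± 0.44, adjusted p = 0.00275). The adipokine genes Metrnl (1.95 ± 0.31) and Serpinf1 (1.61 ± 0.33) rose. Agt, the precursor of angiotensin, fell by 2.37 ± 0.55. Sfrp5, a Wnt antagonist, did not pass although its groups stood apart, at 506, 455 and 469.7 CPM after high-fat diet and 156, 172 and 116 CPM after normal diet (adjusted p = 0.21).

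The insulin and adrenergic receptors of the adipocyte fell, while most genes of their pathways did not pass. Adrb3, the beta-3 adrenergic receptor that starts lipolysis in rodent fat, was at 132, 100.3 and 154 CPM after high-fat diet and 718, 693 and 911 CPM after normal diet (log2 fold change -2.59 ± 0.50, adjusted p = 0.00113). Insr, the insulin receptor, was at 108, 77.98 and 81.1 CPM after high-fat diet and 198, 185 and 209.7 CPM after normal diet (log2 fold change -1.15 ± 0.18, adjusted p = 0.000319). Irs1, the docking protein below it, was at 12.3, 6.43 and 10.3 CPM after high-fat diet and 32.5, 28.8 and 35.5 CPM after normal diet (log2 fold change -1.74 ± 0.34, adjusted p = 0.00137). In all 3 the groups stood well apart. Of 23 insulin signalling genes 4 fell (17.4%, against 9.52% of all genes tested) and none rose, and 2 fell without high-fat library 2 or 3. Slc2a4, the insulin-responsive glucose carrier GLUT4, was at 94.4, 71.04 and 83.9 CPM after high-fat diet and 142, 122 and 163 CPM after normal diet (adjusted p = 0.291), and the lipases Lipe (-0.49 ± 0.28, adjusted p = 0.209) and Pnpla2 (-0.47 ± 0.36, adjusted p = 0.36) did not pass either.

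**Figure D4:**
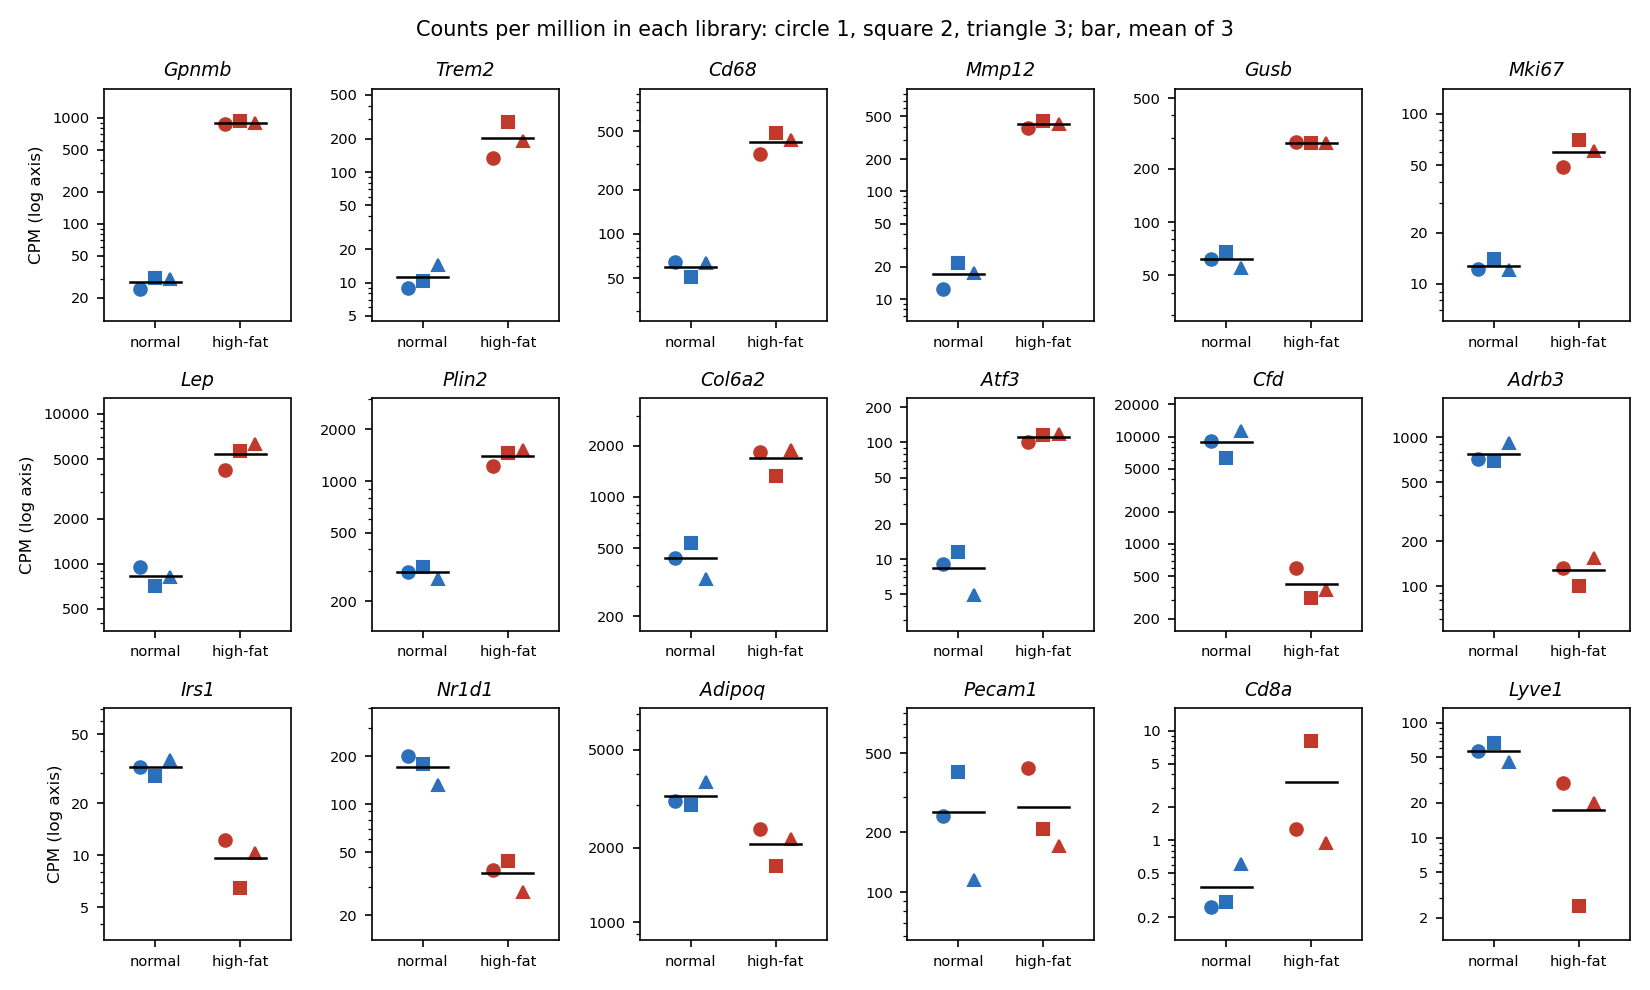
CPM in each library (log axis) for 18 genes, with circles for library 1, squares for 2, triangles for 3 and a bar at the mean of 3. For Gpnmb and Cfd the groups stand far apart, for Pecam1 they overlap, and for Cd8a 1 high-fat library lies above the rest.

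Lipid storage genes moved both ways. Plin2, the lipid droplet coat of macrophages and other non-adipocytes, was at 1220.1, 1456 and 1514 CPM after high-fat diet and 295, 317 and 269 CPM after normal diet (log2 fold change 2.25 ± 0.30, adjusted p = 0.000114). Mogat1, which makes diglyceride, fell by 2.9 ± 0.44, and the carboxylesterase gene Ces1f, from a family that hydrolyses triglyceride and whose near copies may share reads, fell by 3.21 ± 0.69. Fads1, a desaturase of long fatty acids, fell by 0.98 ± 0.23. For fat synthesis itself, Fasn, the fatty acid synthase, was at 1300.3, 1301 and 2299 CPM after high-fat diet and 1459, 1234 and 1265 CPM after normal diet (adjusted p = 0.852), and Acaca, which makes its substrate, at 167, 137 and 174 CPM after high-fat diet and 537, 514 and 560.3 CPM after normal diet (adjusted p = 0.0636). Acaca was lower in every high-fat library (-1.75 ± 0.67) and did not pass. Of 22 lipogenesis genes 3 rose and 2 fell, against 12.0% and 9.52% of all genes tested. Summed, they were at 26729, 14509 and 27224 CPM after high-fat diet and 58519, 43806 and 66606 CPM after normal diet. The sum was lower in every high-fat library, while the mean log2 CPM of the list overlapped between groups. Pck1, the enzyme of glycerol synthesis in fat, was at 869, 634 and 686 CPM after high-fat diet and 3316, 3296 and 3124 CPM after normal diet, and its call ended without high-fat library 2 (-2.05, adjusted p = 0.0633) or high-fat library 3 (-2.1, adjusted p = 0.056).

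Of 23 cholesterol synthesis genes 5 rose and none fell, with a median of 0.89. Groups did not overlap, with high-fat above, for 19 members, against 26.5% of all genes tested. Dhcr7, the last reductase of the pathway, was at 28.97, 40.8 and 43.2 CPM after high-fat diet and 7.19, 7.68 and 7.92 CPM after normal diet (log2 fold change 2.31 ± 0.62, adjusted p = 0.0117), and the isomerase gene Ebp rose by 0.78 ± 0.17. The count of rises was 2 without normal-diet library 1 or 2 or high-fat library 2 or 3, and 3 without normal-diet library 3, and it was 18 when the 3 libraries of other groups that stood apart (maintenance library 3, loss library 1 and the third library of 12 weeks of normal diet) were left out of the pooled fit.

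Lists of energy metabolism differed in how many genes were called, beside 12.0% higher and 9.52% lower of all genes tested. Of 44 nuclear genes of oxidative phosphorylation none was called, with a median of -0.03. Of 24 citrate cycle genes 2 fell, against 1 without normal-diet library 1 and none without normal-diet library 3 or any high-fat library. Of 13 transcripts of the mitochondrial genome 3 fell, and none did without normal-diet library 3 and 1 without normal-diet library 2 or high-fat library 2 or 3. For branched-chain amino acid breakdown 5 of 22 fell, with none without normal-diet library 3, 2 without high-fat library 2 and 3 without high-fat library 3. Bcat1, the cytosolic transaminase of that pathway, rose by 2.08 ± 0.42. Fatty acid oxidation genes gave 4 rises and 1 fall of 22, and glycolysis and lactate genes 4 rises and 2 falls of 21. The glycolysis list had a median of 0.70. Groups did not overlap, with high-fat above, for 14 of its members, against 26.5% of all genes tested. Ucp2, a mitochondrial carrier of macrophages, was at 856, 1112 and 927 CPM after high-fat diet and 253, 292 and 227 CPM after normal diet (log2 fold change 1.91 ± 0.30, adjusted p = 0.00031), and Hk3, a hexokinase of myeloid cells, rose by 2.89 ± 0.47. Acot2, a mitochondrial thioesterase, fell by 0.94 ± 0.13, and Acot4, a peroxisomal one, was at 1.81, 1.46 and 1.98 CPM after high-fat diet and 14.3, 9.34 and 11.1 CPM after normal diet (log2 fold change -2.72 ± 0.31, adjusted p = 3.68e-05).

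Clock output genes fell while the core activators did not pass. Of 20 clock genes 6 fell and none rose, and 4 to 6 fell with 1 library left out. Nr1d1, which encodes the repressor REV-ERB alpha, was at 38.5, 44.04 and 27.9 CPM after high-fat diet and 201, 179 and 132 CPM after normal diet (log2 fold change -2.21 ± 0.37, adjusted p = 0.000378). Per3, a period protein, was at 20.5, 20.9 and 20.3 CPM after high-fat diet and 84.6, 50.5 and 71.8 CPM after normal diet (log2 fold change -1.74 ± 0.43, adjusted p = 0.00665). Arntl, which encodes the activator BMAL1, was at 23.8, 16.8 and 24.005 CPM after high-fat diet and 15.9, 23.3 and 18.7 CPM after normal diet (adjusted p = 0.711), and Clock at 84.7, 58.9 and 74.3 CPM after high-fat diet and 70.1, 87.3 and 92.95 CPM after normal diet (adjusted p = 0.584). Times of day of tissue collection are not stated in the sources used here.

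Of the 17 clock members with a promoter, 1 held the D-box TTATGTAA (reverse TTACATAA), against 0.862% of all promoters. That 1 was Per3, whose 160 bases before the start (chr4:151044666-151044825, minus strand) are printed with the D-box in capitals.
Per3: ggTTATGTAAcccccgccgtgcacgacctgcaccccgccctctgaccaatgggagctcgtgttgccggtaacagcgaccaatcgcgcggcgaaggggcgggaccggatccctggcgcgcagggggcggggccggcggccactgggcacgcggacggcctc
The E-box CACGTG was in 5 of the 17 and, of the 5 members that fell and had a promoter, in Tef alone, an activator of the D-box. The call of Tef (-1.11 ± 0.35) ended without normal-diet library 1 or 3 or any high-fat library (-1.12 to -0.97, adjusted p = 0.0564 to 0.0997).

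Collagens of the pad rose in part. 10 of 21 rose and 2 fell. All 3 main chains of collagen VI, which surrounds adipocytes, rose: Col6a1 (1.6 ± 0.31), Col6a2 (1.95 ± 0.36) and Col6a3 (1.46 ± 0.36). Col6a2 was at 1844, 1331 and 1889.7 CPM after high-fat diet and 441, 539 and 328 CPM after normal diet. Col12a1, which bridges fibrils, rose by 2.79 ± 0.65, and Col4a5, of basement membrane, fell by 1.96 ± 0.40. The count of rises was 5 without normal-diet library 2 or 3 or high-fat library 3 and 6 without normal-diet library 1 or high-fat library 1. Lama1, a laminin chain of basement membrane, was at 0.0711, 0.102 and 0.106 CPM after high-fat diet and 9.22, 8.26 and 5.71 CPM after normal diet (log2 fold change -6.31 ± 0.73, adjusted p = 3.68e-05).

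Some matrix proteases and their inhibitors rose as well. Timp1, an inhibitor of metalloproteinases, was at 18.1, 33.4 and 38.005 CPM after high-fat diet and 2.81, 2.46 and 2.72 CPM after normal diet (log2 fold change 3.49 ± 0.62, adjusted p = 0.000639), and Adam8, a myeloid membrane protease, rose by 4.02 ± 0.77. The count was 8 of 25 higher and 1 lower, and 4 were higher without high-fat library 2. Tnc, a matrix glycoprotein of remodelling tissue, rose by 1.82 ± 0.45, and Fap, an enzyme of activated fibroblasts, by 1.11 ± 0.26. Fn1, fibronectin, was at 1183, 394 and 1067 CPM after high-fat diet and 1020.5, 608 and 673 CPM after normal diet (adjusted p = 0.767).

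Vessel and smooth muscle genes gave few calls, against 21.5% called of all genes tested. Of progenitor genes 20% fell, against 9.52% of all genes tested. Of 25 progenitor genes 5 fell and 1 rose, and 2 fell without any 1 normal-diet library or high-fat library 3 and 1 without high-fat library 2. Of 30 endothelial genes none rose and 3 fell, against 1 without normal-diet library 2 or high-fat library 3. Of 16 smooth muscle genes none was called. Pecam1, an adhesion molecule of vessels, was at 422, 208 and 169.8 CPM after high-fat diet and 240.4, 403 and 115 CPM after normal diet (adjusted p = 0.938). High-fat library 1 was the highest, and the groups overlapped. Angpt1, a growth factor for vessels, fell by 2.14 ± 0.40. Lyve1, a hyaluronan receptor of lymph vessels and of some resident macrophages, was at 29.7, 2.55 and 20.1 CPM after high-fat diet and 56.5, 67.2 and 45.7 CPM after normal diet (log2 fold change -1.69 ± 0.50, adjusted p = 0.0201), and its call ended without normal-diet library 2 (-1.55, adjusted p = 0.0614) or high-fat library 3 (-1.8, adjusted p = 0.0533). Mesothelium genes summed to 148, 114 and 184 CPM after high-fat diet and 399, 284 and 623 CPM after normal diet, and none of 15 fell without normal-diet library 3 or high-fat library 2, against 3 with all libraries, 1 without normal-diet library 2 or high-fat library 1 or 3, and 2 without normal-diet library 1.

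Signalling genes of the matrix and of adipogenesis moved in both directions. Rspo3, an amplifier of Wnt signals, fell by 2.79 ± 0.46, and Wif1, a Wnt inhibitor, was at 1.5996, 3.401 and 3.04 CPM after high-fat diet and 0, 0.0921 and 0 CPM after normal diet. Of 26 Wnt genes 7 fell and 2 rose, and the falls were 1 without high-fat library 2 or 3, 3 without normal-diet library 1, 4 without normal-diet library 2 or 3 and 5 without high-fat library 1. Gdf3, a ligand of the adipocyte receptor Acvr1c, was at 1.49, 2.86 and 2.72 CPM after high-fat diet and 0.0617, 0.0307 and 0.101 CPM after normal diet (log2 fold change 5.12 ± 0.94, adjusted p = 0.000815). Ligand and receptor thus moved in opposite directions. The hormone receptors Prlr, for prolactin, and Thra, for thyroid hormone, fell by 2.22 ± 0.33 and fell by 1.2 ± 0.18, and Hsd11b1, which reactivates glucocorticoids, fell by 1.65 ± 0.29.

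Redox, stress and iron genes gave both directions, with rises the more common. Of 22 genes of endoplasmic reticulum stress 8 rose and 1, Asns, fell. Of 18 iron and haem genes 5 rose and 1, Cp, fell. Gpx3, the secreted glutathione peroxidase, was at 223, 213 and 188 CPM after high-fat diet and 997, 1126 and 1537 CPM after normal diet (log2 fold change -2.55 ± 0.46, adjusted p = 0.000638), and the glutathione transferase gene Gsta3 fell by 2.48 ± 0.45. The phagocyte oxidase subunits Cyba (1.89 ± 0.37) and Cybb (1.76 ± 0.36) rose. Of the redox list 9 rose and 2 fell of 28, and 6 or 7 rose with 1 library left out. With all libraries these are 32.1% and 7.14%, against 12.0% and 9.52% of all genes tested. Atf3, a stress-induced transcription factor, was at 100.4, 116 and 119 CPM after high-fat diet and 9.13, 11.5 and 4.901 CPM after normal diet (log2 fold change 3.71 ± 0.52, adjusted p = 0.000149), while Asns, the asparagine synthetase of the amino acid response, fell by 1.55 ± 0.26. Cp, the iron oxidase ceruloplasmin, fell by 1.94 ± 0.27, and Slc11a1, the metal carrier of phagosomes, rose by 2.09 ± 0.40. Ftl1, the ferritin light chain, was at 2659, 4372 and 3575 CPM after high-fat diet and 1345, 1254 and 1539 CPM after normal diet (log2 fold change 1.36 ± 0.30, adjusted p = 0.00308). Of the eicosanoid genes, Hpgds (2.92 ± 0.49) and Tbxas1 (1.84 ± 0.38), synthases of prostaglandin D and thromboxane, rose, and the secreted phospholipase gene Pla2g2d fell by 2.74 ± 0.34. Ptgs2, the inducible cyclooxygenase, was at 0.284, 0.17004 and 0.354 CPM after high-fat diet and 1.51, 1.17 and 1.48 CPM after normal diet, and its call ended without high-fat library 2 (-2.1, adjusted p = 0.0521).

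Among genes of at least 5 CPM in 1 group, the rises with the largest fold changes included genes best known from other tissues, beside Itgad described above. Gpr50, a receptor without a known ligand in the melatonin receptor family, was at 39.2, 181 and 121 CPM after high-fat diet and 0.0308, 0.522 and 0.101 CPM after normal diet (log2 fold change 8.98 ± 1.73, adjusted p = 0.00114). Tph2, the tryptophan hydroxylase of serotonin neurons, was at 155, 273 and 337 CPM after high-fat diet and 0.956, 0.614 and 0.604 CPM after normal diet (log2 fold change 8.45 ± 1.46, adjusted p = 0.000501). Cck, the gut hormone cholecystokinin, was at 3.199, 20.9 and 14.1 CPM after high-fat diet and 0.0308, 0.123 and 0 CPM after normal diet, Trdn, the muscle protein triadin, at 24.6, 41.7 and 46.3 CPM after high-fat diet and 0.339, 0.154 and 0.436 CPM after normal diet, and Pvalb, the calcium buffer parvalbumin, at 8.21, 20.6 and 14.6 CPM after high-fat diet and 0.216, 0.154 and 0.101 CPM after normal diet. These are known from nerve, gut or muscle, and each was near 0 in every normal-diet library. Muscle genes gave 1 rise and 1 fall of 10, Pvalb and the actinin gene Actn3, and Acta1, the main muscle actin, was at 65.5, 46.9 and 52.7 CPM after high-fat diet and 60.9, 122 and 57.4 CPM after normal diet (adjusted p = 0.748). Calls in the muscle list were 10% in each direction, near the 12.0% higher and 9.52% lower of all genes tested. The muscle list summed to 78.9, 73.5 and 71.2 CPM and 69.2, 129 and 68.6 CPM. Otop1, a proton channel, rose by 5.46 ± 1.0, and Myh15, a myosin heavy chain gene, by 6.28 ± 1.01.

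Genes with the smallest adjusted p were mostly not those with the largest change. Abhd12, a lipase of lysophosphatidylserine, was at 278, 309 and 291 CPM after high-fat diet and 101, 109 and 101 CPM after normal diet (log2 fold change 1.5 ± 0.15, adjusted p = 1.6e-05). Daglb, the diacylglycerol lipase of macrophages, was at 109.9, 129.6 and 122 CPM after high-fat diet and 33.4, 28.3 and 31.3 CPM after normal diet (log2 fold change 1.96 ± 0.20, adjusted p = 1.6e-05). Prps1, which makes the ribose phosphate used for nucleotides, was at 264, 293 and 381 CPM after high-fat diet and 51.8, 56.9 and 58.1 CPM after normal diet (log2 fold change 2.49 ± 0.26, adjusted p = 1.6e-05). Libraries of 1 group differed little in all 3. On the lower side Slc20a2, a phosphate carrier, was at 33.8, 29.3 and 30.3 CPM after high-fat diet and 60.2, 54.2 and 57.9 CPM after normal diet (log2 fold change -0.88 ± 0.10, adjusted p = 3.68e-05), and Podn, a leucine-rich matrix protein, at 42.3, 34.96 and 41.3 CPM after high-fat diet and 218, 161 and 189 CPM after normal diet (log2 fold change -2.26 ± 0.29, adjusted p = 9.3e-05).

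Several of the largest falls lay in genes listed for neighbouring tissue. Kap, a gene of kidney and reproductive tract, was at 0, 0 and 0 CPM after high-fat diet and 18.6, 0.614 and 5.57 CPM after normal diet. Within the normal-diet group Kap was lowest in library 2, where the efferent duct sum without Aqp1 was highest (39.3, 271 and 62.9 CPM). Of 16 efferent duct and ciliated epithelium genes 12 fell, against 1 without normal-diet library 2 or high-fat library 2 and 3 without high-fat library 1 or 3. Cdh16, an epithelial cadherin, was at 0.0711, 0 and 0 CPM after high-fat diet and 1.54, 24.1 and 3.46 CPM after normal diet, and its call ended without normal-diet library 2 (-6.5, adjusted p = 0.0639), high-fat library 2 (-7.92, adjusted p = 0.0725) or high-fat library 3 (-7.94, adjusted p = 0.0699). Whether these falls reflect tissue taken with the pad was not tested. Cyp2e1, a cytochrome of liver that fat also expresses, was at 362, 72.6 and 199 CPM after high-fat diet and 4069.8, 2739 and 5140.5 CPM after normal diet (log2 fold change -4.24 ± 0.82, adjusted p = 0.00118), a level far above that of Alb in the same libraries.

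A shorter exposure at a later age was compared gene by gene. In mice given the high-fat diet for the last 4 of 16 weeks, against 16 weeks of normal diet, 3.80% of all genes tested rose and 2.02% fell, 5.82% together. 530 genes rose in both comparisons, which is 24.8% of those that rose after 8 weeks and 78.3% of those that rose after 4 weeks, and 209 fell in both, 12.3% and 58.1%. No gene was called in opposite directions. Of the genes that rose after 8 weeks 2041 of 2136 had a positive log2 fold change after 4 weeks, and of those that fell 1506 of 1697 a negative one. Their medians were 1.14 and -1.22 after 8 weeks and 0.63 and -0.48 after 4 weeks. These genes were chosen by their 8-week calls, which favours larger values after 8 weeks, so the medians do not compare the sizes of the effects. Over all 17821 genes, without that choice, the log2 fold changes of the comparisons had a Pearson r of 0.52. Age and length of the diet differ together between the comparisons and cannot be told apart.

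Cell cycle and lipid-associated macrophage genes rose in part after the shorter exposure. After 4 weeks 15 of 41 and 10 of 22 rose, with medians of 1.1 and 1.06. Gpnmb had a log2 fold change of 3.79 ± 0.78, adjusted p = 0.0144, Trem2 of 3.49 ± 0.70, adjusted p = 0.013 and Stmn1 of 1.79 ± 0.24, adjusted p = 0.00238. Lama1 fell in both (-4.12 ± 0.65, adjusted p = 0.00816 after 4 weeks), as did Mmp9 (-2.85 ± 0.49, adjusted p = 0.00911). Cfd had -1.44 ± 0.65, adjusted p = 0.175, Adrb3 -0.54 ± 0.47, adjusted p = 0.507, Lep 1.5 ± 0.65, adjusted p = 0.158 and Nr1d1 -0.54 ± 0.35, adjusted p = 0.351, and these 4 did not pass. The difference between the 2 effects was itself tested in the same model. No gene was called (0% of all tested), with a smallest adjusted p of 0.117 and 1519 genes at an unadjusted p under 0.05, while DESeq2 called 41. The 4-week count of 1037 was 0 without the first and 3 without the second library of 16 weeks of normal diet, 465 without the second library of 4 weeks of high-fat diet, and 0 in a fit of those 6 libraries alone, so overlaps with it rest on those libraries.

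**Figure D5:**
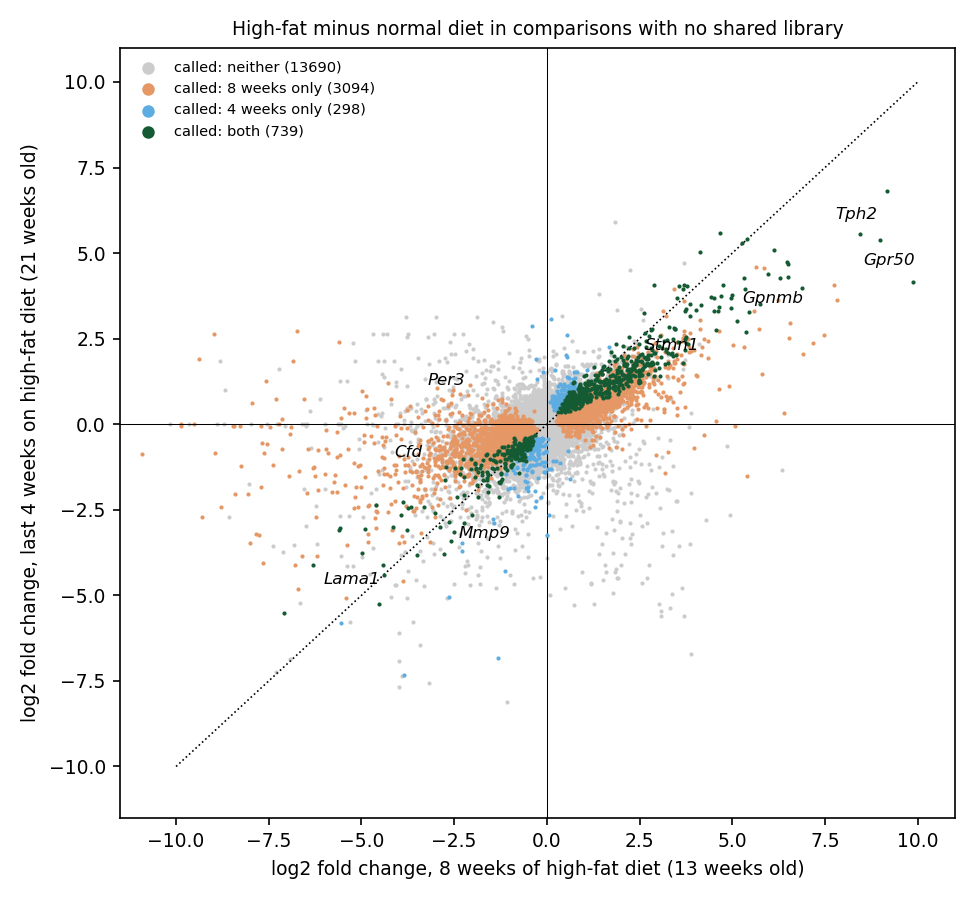
Log2 fold change after the last 4 weeks on high-fat diet (vertical axis, 21 weeks old) against that after 8 weeks (horizontal axis, 13 weeks old), 1 point a gene, with genes called in either or both comparisons in colour. Of the genes called in both, 530 lie at the upper right and 209 at the lower left.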

How the data were processed

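Per the labels' protocols, RNA of whole fat pads went into TruSeq RNA libraries. The submitters' processing notes name Trimmomatic 0.33, TopHat2 2.0.13, HTSeq 0.6.0 and the build mm10, which is GRCm38. Neither the strand setting nor the annotation behind the counts is given in the sources used here. Raw read counts were deposited per gene name, where 156 rows repeat a name with the same values and were dropped. FPKM as deposited, counts divided by exonic length and library total, entered alternatives only. The exonic length deposited with each gene was not used as a measurement.

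Names were kept by edgeR's filterByExpr (minimum count 10, minimum total 15), which left 17821 of 43460 names and at least 99.934% of the counts of each of the 6 libraries. All 27 libraries were fitted with a mean per group after TMM scaling (edgeR 4.0.16, R 4.3.3), and p-values were adjusted by Benjamini-Hochberg over all names tested. Levels are TMM-scaled CPM, and list means are over log2 CPM (prior count 2). Dividing the fold change by the root of its F statistic gave the SE. Counts of replicates differed beyond sampling noise (chi-square over degrees of freedom 26.6 to 85.2). Depth limits genes at a few reads.

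The alternatives tried were DESeq2 1.42.0, RLE scaling, no filter, a fit to only the groups compared, each library left out, 3 libraries of other groups left out together, a replicate block, a term for libraries above 1000 CPM of Lars2, and limma 3.58.1 on log2(FPKM + 1) and log2(FPKM + 0.1). A group reduced to 2 libraries takes its spread from the pooled estimate. Deviations of same-numbered libraries correlated at -0.02, -0.13 and 0.10 in the 8-week comparison and at 0.03, 0.17 and 0.18 in the 4-week one, where libraries 2 and 3 matched their own number best; since not every pair was above 0.1, the numbers were not taken to pair samples. On simulated counts with 50 genes changed at each size, 4%, 24%, 62% and 74% of genes changed 1.5-, 2-, 4- and 8-fold were recovered, over 17559 genes.

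The groups compared, the 72 gene lists, the alternatives and the rule for naming genes were chosen with earlier results of these data known, so a list's direction is not independent evidence. The rule names, by direction, the 12 called genes with the largest fold changes whose groups do not overlap and whose higher group averages at least 5 CPM, the 10 with the highest level, the 10 with the smallest adjusted p, the 4 called members of each list with the smallest adjusted p, and the defining members of each list whether called or not. The text uses part of them, leaves some genes unreported here, and says where a gene lies outside the rule. Positions of genes are from the GENCODE annotation of GRCm38, matched by gene ID for 17652 tested names, and promoter sequences are from RefSeq's table for GRCm38.p6, matched by symbol to the first start listed.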

Additional observations from a re-analysis of the deposited data

How the results depend on the processing

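After 8 weeks of high-fat diet 3833 genes were called, 2136 higher and 1697 lower. A model of the compared groups only called 5898 (3259 higher, 2639 lower), and the fit without the 3 libraries of other groups that stood apart called 2595 lower. With each library left out in turn the counts were 2129 to 3289 called, 1388 to 1963 higher and 741 to 1326 lower, lowest without high-fat library 2 (2129) and next without high-fat library 3 (2330), and the cause was not tested. DESeq2 shared 3803 of the 3833 calls in the same direction, RLE scaling 3680, the term for Lars2 3806, the fit without a filter 3061, and limma on log2(FPKM + 1) and log2(FPKM + 0.1) 2881 and 2963. Of calls 55.7% were higher, and 49.7% with DESeq2 and 65.2% without high-fat library 2. The numbers of the labels were not taken to pair the libraries, and with the replicate block 3669 genes were called, 2067 higher and 1602 lower, 3572 of them also called without it.

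For the last 4 weeks of high-fat diet the count was 1037, against 2004 with DESeq2, 641 with no filter, 808 with the replicate block, 0 in a model of the compared groups only, 2624 without the 3 libraries that stood apart, and 0 to 1504 with 1 library left out. The difference between both effects gave 0 genes, and 41 with DESeq2, 1 with limma on log2(FPKM + 0.1), 2 on log2(FPKM + 1), 1 with the term for Lars2, 0 with the replicate block, 19 without the 3 libraries that stood apart, and 0 to 4 with 1 library left out.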
